A study of Mus musculus with 6 samples.

Results

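Interferon response genes were described as 9 members picked by name: the transcription factors Irf1, Irf7, Irf9 and Stat2, the cytosolic effectors Isg15, Ifit1 and Ifit3, and the membrane proteins Bst2 and Ifitm3. They are 9 of the 31055 features of the deposited count matrix, and each name matched 1 row. They were followed across cell classes and vascular smooth muscle cell (VSMC) subtypes in single cells dissociated from the proximal aorta (root and ascending segment) of female mice aged 16 weeks on a 129SVE background. Cells were freed by enzymatic digestion, sorted as nucleated and viable with a pair of dyes and captured with 10x 3′ chemistry. The sample labels list 4 control (CTL) mice and 2 mice with Loeys-Dietz syndrome (LDS). The genotype of the LDS mice is Tgfbr1M318R/+, a heterozygous missense change in a TGF-β receptor, and that of the CTL mice is Tgfbr1+/+. A pair of the CTL mice also carried a Wnt2CRE driver and the EGFP-L10a reporter, which trace cardiac neural crest cells, so the tracer was absent from the other CTL mice and from the LDS mice. A suffix from 1 to 6 on each barcode separates the 6 libraries, but the sources used here do not pair a suffix with a mouse. LDS and CTL mice were therefore not compared, no library was given a genotype, and a value that holds in all 6 libraries holds whichever library is which.

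Interferons are secreted proteins that cells release on sensing viral nucleic acid or on immune activation. Type I interferon binds the Ifnar1 and Ifnar2 receptor, whose kinases Jak1 and Tyk2 activate Stat2. It joins Irf9 in a complex that binds the interferon-stimulated response element (ISRE) of target genes, whereas interferon gamma acts through the Ifngr1 and Ifngr2 receptor on the gamma-activated site (GAS). Among the members, Irf7 amplifies type I interferon production, Irf1 is a gamma target and an early response gene of many stimuli, Isg15 is a ubiquitin-like modifier, Ifit1 and Ifit3 bind foreign RNA and assemble together, Bst2 (tetherin) holds budding virions at the membrane, and Ifitm3 restricts viral entry.

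Cells were kept where the number of genes lay between 1000 and 5000, that of unique molecular identifiers (UMIs, each counting 1 captured transcript) between 1500 and 25000, and the mitochondrial share under 20%, which left 24972 of 30716 barcodes. Libraries held between 1863 and 6395 kept cells, with medians of 5572 to 9838 UMIs per cell. Clusters were called VSMC-like (10399 cells), fibroblast-like (13437), endothelial-like (570) and leukocyte-like (549) from their markers. Myh11, a smooth muscle myosin, was at 2438 CPM (UMIs of a gene scaled to a fixed total per class) in VSMC-like cells and 44.5 CPM in fibroblast-like cells, and Ptprc, the pan-leukocyte marker CD45, was at 0.207 CPM in VSMC-like and 255 CPM in leukocyte-like cells. A VSMC-like cluster of 370 cells led by Cd74 and Tnnt2 had a cardiomyocyte marker (Tnnt2) among its leading genes, with Myh11 at 1842 CPM and the cardiac myosin Myh6 at 2.28 CPM. Endothelial-like cells of library 6 numbered 10, under the minimum of 20 cells for a sum, and were left out of class levels. Of the kept cells, 1590 (6.37%) had a barcode sequence that also occurred in another library before filtering and 152 (0.609%) one that occurred in another library's kept cells.

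Promoter sequences were examined because the factors that interferons activate read the ISRE and GAS elements in front of their targets. The 250 bases before the RefSeq start of all 9 genes were searched on both strands for the ISRE letters GAAANNGAAA (TTTCNNTTTC on the other strand) and the GAS letters TTCNNNGAA, which read the same on both strands. The ISRE letters were found before 5 of the 9 members, against 2.98% of 32851 promoters of the same length, with 3 matches for Isg15, 2 each for Ifit1, Ifit3 and Bst2, and 1 for Stat2, where 0.180% of all promoters held 2 or more. The GAS letters were found before 2 members, Irf1 and Bst2, against 7.02% of promoters. The promoters of the 3 effectors, of Bst2 and of Irf1 are printed since the results below turn on these genes, in GRCm38.p6 from RefSeq, 5′ to 3′ on the gene's strand, with capitals for the matched letters. The 3 matches of Isg15 overlap each other, and in Bst2 the GAS letters overlap the ISRE letters.
Isg15: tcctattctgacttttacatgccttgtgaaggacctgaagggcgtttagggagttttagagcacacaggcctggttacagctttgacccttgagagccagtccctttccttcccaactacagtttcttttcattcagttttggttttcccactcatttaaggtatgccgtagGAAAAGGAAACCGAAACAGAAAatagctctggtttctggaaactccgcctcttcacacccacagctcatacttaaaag
Ifit1: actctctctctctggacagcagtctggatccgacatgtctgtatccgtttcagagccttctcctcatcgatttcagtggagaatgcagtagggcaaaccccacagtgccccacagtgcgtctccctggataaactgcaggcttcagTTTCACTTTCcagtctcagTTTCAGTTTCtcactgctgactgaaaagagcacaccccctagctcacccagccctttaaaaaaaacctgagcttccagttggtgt
Ifit3: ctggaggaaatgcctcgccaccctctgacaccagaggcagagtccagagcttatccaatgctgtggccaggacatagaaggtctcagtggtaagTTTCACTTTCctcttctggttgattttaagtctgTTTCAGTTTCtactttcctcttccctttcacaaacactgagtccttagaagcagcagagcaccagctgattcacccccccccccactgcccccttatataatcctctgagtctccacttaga
Bst2: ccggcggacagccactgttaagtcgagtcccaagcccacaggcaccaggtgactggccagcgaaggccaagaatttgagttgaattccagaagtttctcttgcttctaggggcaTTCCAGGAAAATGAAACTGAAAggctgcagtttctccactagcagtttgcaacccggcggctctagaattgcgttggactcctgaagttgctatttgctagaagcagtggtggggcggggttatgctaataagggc
Irf1: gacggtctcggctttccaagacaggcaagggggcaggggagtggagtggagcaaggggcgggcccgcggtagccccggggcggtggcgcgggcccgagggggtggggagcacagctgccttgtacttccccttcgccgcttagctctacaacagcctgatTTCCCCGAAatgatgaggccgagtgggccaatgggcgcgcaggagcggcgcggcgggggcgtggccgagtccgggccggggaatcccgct
These windows are chr4:156200819-156201068 (minus strand) for Isg15, chr19:34640639-34640888 (plus) for Ifit1, chr19:34583279-34583528 (plus) for Ifit3, chr8:71537473-71537722 (minus) for Bst2 and chr11:53769764-53770013 (plus) for Irf1. The ISRE matches began 78, 72 and 66 bases before the start of Isg15, 104 and 85 before that of Ifit1, 156 and 122 before that of Ifit3, and 130 and 124 before that of Bst2, whose GAS match began at 136. The GAS match of Irf1 began 90 bases before its start. The windows before Irf7, Irf9 and Ifitm3 held neither set of letters. The RefSeq start used for Irf9 lies 414 bases inside the gene as given by GENCODE, so the bases before the GENCODE start were not searched. A match describes letters and was not a measure of binding in these cells.

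The first comparison asked which cells of the aortic wall held these transcripts. All 9 members had their lowest median level in VSMC-like cells, whereas 26.6% of 10506 genes with at least 10 CPM in any class were lowest there, and 8 of the 9 were highest in endothelial-like cells, against 33.4% of the same genes. Of these members, 3 reached 10 CPM in VSMC-like cells. The rest could enter through another class alone, so the counts are a description. Levels were taken from UMIs summed over the cells of a class in a library and scaled to that sum, in CPM, and medians are over 6 libraries (5 for endothelial-like cells).

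Among the regulators, Irf1 (ENSMUSG00000018899, mm10 chromosome 11 from 53770014 to 53778374) was at 14.2, 16.1, 28.4, 40.3, 70.7 and 44.3 CPM in VSMC-like cells of libraries 1 to 6. In fibroblast-like cells the same libraries gave 129.9, 103, 153, 259, 329 and 148 CPM, so that the lowest fibroblast-like value lay above the highest VSMC-like value. Its median was 398 CPM (179 to 666) in endothelial-like and 216 CPM (156 to 354) in leukocyte-like cells, ranges that overlapped each other and that of fibroblast-like cells. Irf7 (ENSMUSG00000025498, chromosome 7 from 141262706 to 141266481), which is itself induced by interferon, had a median of 2.75 CPM (1.89 to 7.02) in VSMC-like and 14.3 CPM (7.21 to 24.5) in fibroblast-like cells without overlap. It was at 56.2 CPM (22.9 to 78.9) in endothelial-like and 53.8 CPM (34.7 to 108) in leukocyte-like cells, neighbours that did not differ beyond their spread. Irf9 (ENSMUSG00000002325, chromosome 14 from 55603571 to 55610030), the DNA-binding subunit of the type I complex, had medians of 7.33 CPM (6.33 to 10.6) in VSMC-like, 16.2 CPM (12.9 to 18.7) in fibroblast-like, 26.8 CPM (17.3 to 41.1) in leukocyte-like and 46.0 CPM (24.1 to 75.1) in endothelial-like cells. The VSMC-like range of Irf9 was apart from the other 3, which overlapped with their neighbours. Stat2 (ENSMUSG00000040033, chromosome 10 from 128270559 to 128292849), its partner, was at 9.12 CPM (6.83 to 10.5) in VSMC-like, 15.5 CPM (10.1 to 21.5) in fibroblast-like, 20.4 CPM (5.87 to 26.4) in leukocyte-like and 39.8 CPM (27.5 to 55.9) in endothelial-like cells, and only the endothelial-like range was apart. Irf1 overlaps Gm17334 by 907 bases and Irf7 overlaps Phrf1 by 45 bases, both on the opposite strand. Irf9 overlaps Rnf31 by 123 bases on the same strand, so reads in that stretch cannot be assigned with certainty.

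Among the effectors, Isg15 (ENSMUSG00000035692, chromosome 4 from 156199424 to 156200818) was at 3.59, 5.30, 29.7, 7.44, 5.12 and 7.19 CPM in VSMC-like cells of libraries 1 to 6, and library 3 stood above the rest. Fibroblast-like cells held 17.0, 19.6, 28.8, 43.5, 45.1 and 22.5 CPM, so the classes overlapped through library 3 alone. Endothelial-like (median 118 CPM, 56.2 to 235) and leukocyte-like cells (94.9 CPM, 63.5 to 135) lay above all VSMC-like and fibroblast-like values. Ifit1 (ENSMUSG00000034459, chromosome 19 from 34640871 to 34650009) was at 0.980, 0.719, 13.4, 0.683, 1.12 and 1.01 CPM in VSMC-like cells, again with library 3 apart, and at a median of 7.47 CPM (4.22 to 24.6) in fibroblast-like and 47.9 CPM (11.5 to 68.7) in endothelial-like cells. Leukocyte-like cells held 19 UMIs of Ifit1 in all, a median of 4.12 CPM. Ifit3 (ENSMUSG00000074896, chromosome 19 from 34583531 to 34588731) was at 1.44, 3.32, 16.9, 2.89, 1.91 and 2.02 CPM in VSMC-like cells. It was the member that was highest in fibroblast-like cells, with a median of 19.9 CPM (12.3 to 34.0) against 19.7 CPM (10.4 to 44.2) in endothelial-like and 15.2 CPM (3.58 to 18.7) in leukocyte-like cells, differences within the spread over libraries. The transcript of Ifit3 is 97.8% identical over 1700 of its 1745 bases to that of its neighbour Ifit3b, so the division of reads between them is uncertain.

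The membrane members act at the cell surface and in endosomes. Bst2 (ENSMUSG00000046718, chromosome 8 from 71534255 to 71537456) was at 69.1, 80.6, 122, 93.0, 82.7 and 77.9 CPM in VSMC-like cells and at 134, 117, 151, 108, 125 and 109 CPM in fibroblast-like cells, higher within each library although the ranges overlapped through library 3. Its median was 338 CPM (213 to 411) in endothelial-like and 169 CPM (121 to 258) in leukocyte-like cells. Ifitm3 (ENSMUSG00000025492, chromosome 7 from 141009586 to 141010770) was at 289, 377, 595, 431, 338 and 335 CPM in VSMC-like cells and at a median of 1774 CPM (1525 to 2214) in fibroblast-like and 3143 CPM (2592 to 3795) in endothelial-like cells, 3 ranges without overlap. Leukocyte-like cells (652 CPM, 449 to 849) overlapped with VSMC-like cells alone. After each cell was thinned to 3000 UMIs, which 9830 of the 10399 VSMC-like, 12224 of the 13437 fibroblast-like, 415 of the 570 endothelial-like and 449 of the 549 leukocyte-like cells reached, 58.9% of VSMC-like, 97.0% of fibroblast-like, 99.3% of endothelial-like and 57.9% of leukocyte-like cells held a UMI of Ifitm3 (81.1, 98.6, 99.8 and 63.4% before thinning).

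Ratios within a library gave the same picture. Genes entered these shares with at least 10 CPM in either of the classes compared. Only 3 of the 9 members reached that in VSMC-like cells, and the rest could pass through the other class alone. The counts of members beside the shares are therefore a description. Fibroblast-like cells were higher than VSMC-like cells in all 6 libraries for 6 of the 9 members, against 38.0% of 8731 genes, with median log2 ratios of 2.55 (range 1.74 to 3.19) for Irf1, 2.37 for Irf7, 1.03 for Irf9, 0.75 for Stat2, 0.52 for Bst2 and 2.25 for Ifitm3. Isg15, Ifit1 and Ifit3 were higher in 5 of 6 libraries (medians 2.05, 2.61 and 3.05) and lower in library 3 (-0.04, -0.69 and -0.40). Endothelial-like cells were higher in all 5 libraries for 7 members, against 34.0% of 9294 genes, with medians from 1.86 for Bst2 to 4.91 for Isg15, and Ifit1 and Ifit3 were higher in 4 of 5 (medians 5.89 and 3.70). Leukocyte-like cells were higher in all 6 libraries for 6 members, against 27.2% of 9367 genes, from 0.77 for Ifitm3 to 4.15 for Isg15. Stat2, Ifit1 and Ifit3 were higher there in 5 of 6, and Ifit1 did not reach 10 CPM in either class. No member was lower than in VSMC-like cells in all libraries, where 34.5, 23.3 and 34.4% of genes were in fibroblast-like, endothelial-like and leukocyte-like cells.

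**Figure D1:**
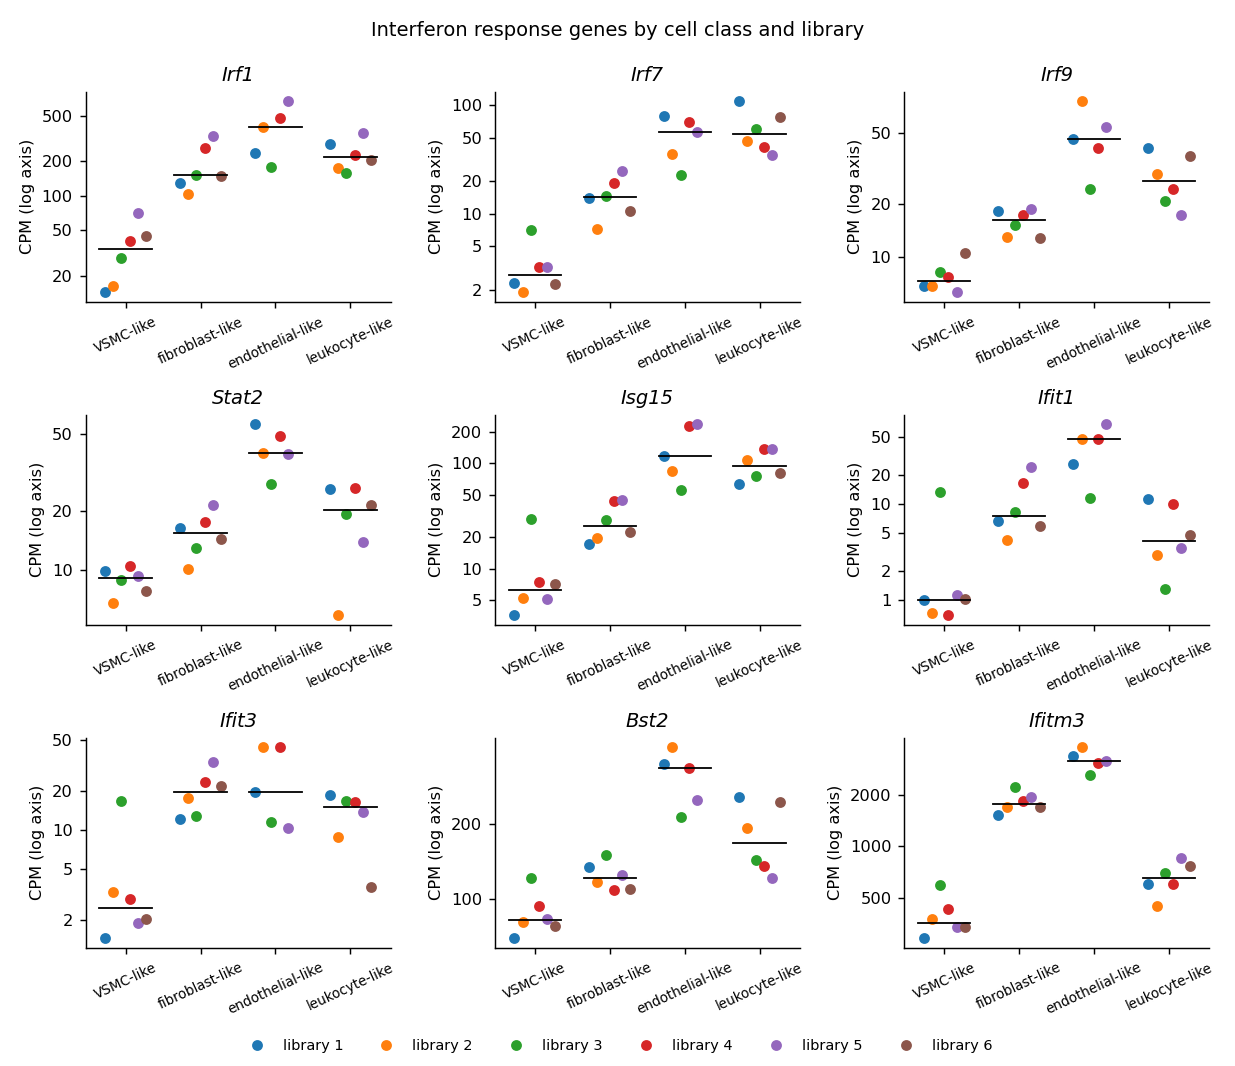
Level of each of the 9 genes in CPM (log axis) by cell class, with 1 point per library of at least 20 cells and a line at the median. VSMC-like cells are lowest in median for every gene, and library 3 (green) stands apart in VSMC-like cells for Isg15, Ifit1, Ifit3 and Irf7.

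Other parts of the pathway were read as lists, where 38.0% of all genes were higher and 34.5% lower in fibroblast-like than in VSMC-like cells in all libraries, and 34.0% were higher in endothelial-like cells. Of the type I interferon effectors at 10 CPM in either class, 17 of 24 were higher in fibroblast-like cells in all 6 libraries and 1 was lower (median log2 ratio 0.82, against 0.02 over all genes tested), and 31 of 37 were higher in all 5 libraries in endothelial-like cells (2.59, against 0.17). MHC class I presentation genes, which load peptides for display to T cells, were higher in fibroblast-like cells in 14 of 16 cases (1.22) and in endothelial-like cells in 16 of 18 (2.26). Of the interferon gamma GTPases and chemokines, 6 of 7 were higher in fibroblast-like cells (1.88) and 15 of 16 in endothelial-like cells (3.50). In VSMC-like cells, 13 type I effectors, 11 MHC class I genes and 3 gamma GTPases and chemokines reached 10 CPM. The other genes of these lists passed only through the class set against VSMC-like cells, so the counts are a description. The receptors and their kinases were split in fibroblast-like cells, with 5 of 7 higher and 2 lower (0.81), and negative regulators were higher in 4 and lower in 3 of 9 (0.09), close to the shares of all genes. Of the interferon ligands, 6 were counted, none of them an interferon alpha gene. Ifnb1 had 1 UMI and Ifng 2 UMIs in all cells, and Ifnl2, Ifnl3, Ifne and Ifnk had 0. The receptors that would receive them were present in VSMC-like cells, with median levels of 20.5 CPM for Ifnar1, 56.6 for Ifnar2, 52.7 for Ifngr1 and 109 for Ifngr2.

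Within VSMC-like cells, libraries differed in these genes. The paper states that samples were prepared on multiple days, and the day of each library is not known here. Irf7, Isg15, Ifit1, Ifit3, Bst2 and Ifitm3, 6 of the 9 members, were highest in library 3, where 13.1% of 11891 genes with at least 1 CPM were highest. Ifit1 had 164 of its 229 VSMC-like UMIs in library 3. Its place among genes of at least 1 CPM rests largely on that library, so the count is a description. Irf1 was highest in library 5, Irf9 in library 6 (10.6 CPM against 6.33 to 8.24 elsewhere) and Stat2 in library 4. For Irf7, library 3 gave 7.02 CPM and the others 1.89 to 3.27 CPM. In fibroblast-like cells the order was another one: 7 members were highest in library 5, against 16.5% of 12711 genes, and Bst2 and Ifitm3 in library 3. Ifit1 in fibroblast-like cells of libraries 1 to 6 was at 6.65, 4.22, 8.29, 16.8, 24.6 and 5.95 CPM. A list of 23 dissociation genes, such as Fos, Jun and Hspa1a, which rise during enzymatic digestion of tissue, summed to 23027, 18859, 24482, 26999, 31003 and 20279 CPM in the same cells, and was also highest in library 5. Its part in the fibroblast-like levels was not tested.

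The library 3 values for the effectors rested on few cells. Of 1697 VSMC-like cells of library 3, 20 (1.18%, 95% exact binomial interval 0.721 to 1.81%) held UMIs of Isg15, Ifit1 and Ifit3 together. None of the 8702 VSMC-like cells of the other libraries did, which allows a share of up to 0.0345%, and 17 of those held 2 of the 3 genes. Intervals and limits cover counting error alone. The 20 cells held 72.3% of the Isg15, 91.5% of the Ifit1, 87.9% of the Ifit3 and 53.5% of the Irf7 UMIs of VSMC-like cells in that library. Without them, Isg15 was at 8.35 CPM instead of 29.7, Ifit1 at 1.16 instead of 13.4, Ifit3 at 2.07 instead of 16.9 and Irf7 at 3.31 instead of 7.02. These values are close to or among those of the other libraries, whose highest were 7.44, 1.12, 3.32 and 3.27 CPM. Bst2 (122 to 102 CPM) and Ifitm3 (595 to 521 CPM) remained highest in library 3 without those cells, and Irf1 was at 28.4 CPM with them and 28.6 CPM without. Leaving out the cluster led by Cd74 and Tnnt2, which held 2 of the 20 cells, gave 30.5 CPM for Isg15, 12.4 for Ifit1, 15.8 for Ifit3 and 6.70 for Irf7.

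**Figure D2:**
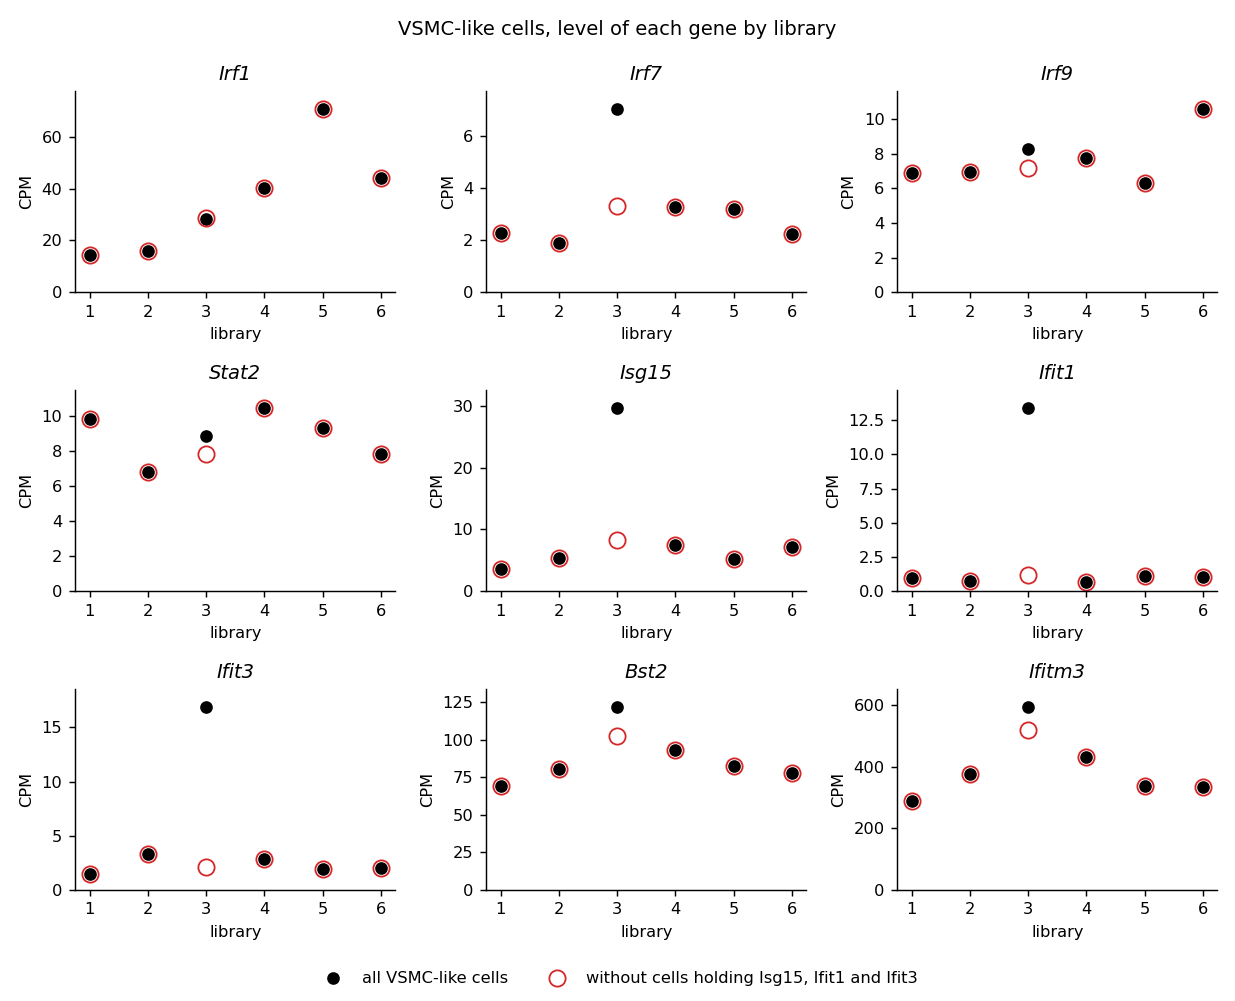
Level of each gene in CPM in VSMC-like cells by library, for all cells (filled) and without cells that hold Isg15, Ifit1 and Ifit3 (open). The open and filled points part in library 3, from 29.7 to 8.35 CPM for Isg15, and coincide elsewhere.

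These 20 cells were defined by the effectors after the data were seen, so the levels of Isg15, Ifit1 and Ifit3 in them are given as a description. They held a median of 7.5 (2 to 38) UMIs of Isg15, 6.5 (1 to 28) of Ifit1 and 5.5 (1 to 32) of Ifit3. The remaining members were not used to find them. Irf7 was at 308 CPM in the 20 cells and 2.57 CPM in the 1579 VSMC-like cells of library 3 without a UMI of the 3 genes, and 95.0% against 1.77% of the cells held a UMI of it. Irf9 was at 93.8 against 6.19 CPM (14 UMIs in the 20 cells), Stat2 at 93.8 against 7.34 CPM (14 UMIs), Bst2 at 1715 against 96.6 CPM and Ifitm3 at 6565 against 485 CPM. Irf1 went the other way, with 13.4 against 28.1 CPM, but on 2 UMIs in the 20 cells. On the scale of log2(CPM + 5), 5 of the 6 remaining members were over 2-fold higher, and 2 of the 3 that had at least 10 CPM in the reference cells (Irf1, Bst2 and Ifitm3), where 2.41% of 7761 genes with at least 10 CPM were. The comparison is within 1 library and has no replicate.

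The pathway lists divided in these cells. All 11 MHC class I presentation genes at 10 CPM were over 2-fold higher (median log2 ratio 1.30), among them B2m (703 against 283 CPM), the light chain of the class I molecule. So were 9 of 11 type I effectors (2.72), among them Xaf1, an apoptosis regulator (422 against 11.9 CPM), and Phf11d (389 against 13.6 CPM). Usp18, the protease that removes Isg15 from its targets, was at 295 against 0.354 CPM and Rtp4 at 80.4 against 0.619 CPM, both under 10 CPM in the reference cells and named after their values were seen. Stat3 was at 20.1 against 51.5 CPM on 3 UMIs. None of the 7 receptors and kinases (0.03) and none of the 9 genes listed as negative regulators (-0.05) was over 2-fold higher, Socs3 being at 87.1 against 98.2 CPM. The list of negative regulators does not hold Usp18, which was counted among the type I effectors. Ifnb1 and Ifng had 0 UMIs in both sets. The 20 cells kept the smooth muscle marker Myh11 at 2284 CPM, against 2301 CPM in the reference cells, and had the fibroblast marker Lum at 13.4 against 284 CPM, Ptprc at 0 UMIs and the endothelial marker Pecam1 at 53.6 against 34.7 CPM (8 UMIs). Their median depth was 6489 UMIs, against 6884, 0% against 1.52% were marked as doublets, and 1 of the 20 shared its barcode sequence with another library before filtering. By subtype, 18 of the 20 were VSMC1-like and 2 Rgs5-high, and 0 of 179 VSMC2-like cells of library 3 were among them, which allows a share of up to 1.68%. The share in VSMC1-like cells of library 3 was 1.45% (18 of 1243), under this limit, so the counts do not separate the subtypes.

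**Figure D3:**
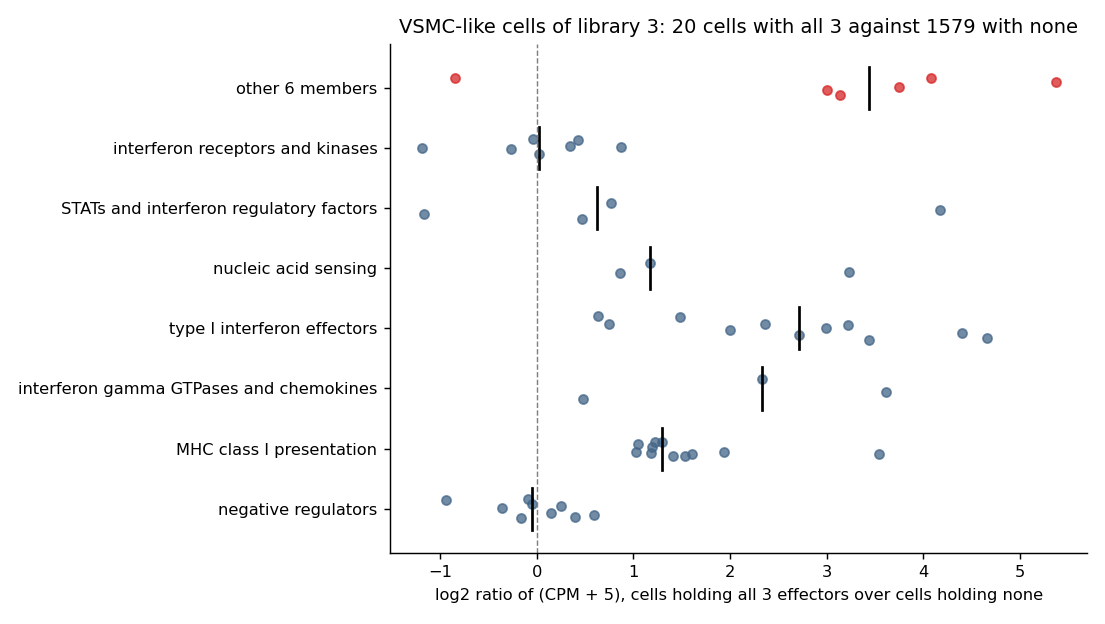
Log2 ratio of CPM + 5 between the 20 VSMC-like cells of library 3 that hold all 3 effectors and the 1579 that hold none, with 1 point per gene of at least 10 CPM in the latter (all 6 remaining members are shown) and a line at the median of each list. MHC class I genes and most type I effectors lie above 1, while receptors and negative regulators lie around 0.

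Cells with all 3 effectors were found in every library among fibroblast-like cells, at 5, 6, 14, 36, 39 and 5 cells in libraries 1 to 6, together 105 of 13437 (0.781%, 0.640 to 0.945%). The highest share was in library 5 (1.82%, 1.30 to 2.48%), with 0.900% in library 4 and at most 0.550% elsewhere. Against the fibroblast-like cells with none of the 3, Irf7, Irf9 and Ifitm3 were higher in all 6 libraries, with median log2 ratios of 2.97 (1.01 to 5.02), 1.76 (1.21 to 2.03) and 1.24 (0.26 to 1.67), where 1.75% of 8102 genes were. In the cells with all 3, Irf7 had 1, 3 and 4 UMIs in libraries 1, 2 and 6, and Irf9 had 3 in each of these. The direction of Irf7 and Irf9 in those libraries thus rests on few UMIs. The sums of cells with all 3 in libraries 1, 2, 3 and 6 were also under the minimum of 20 cells used elsewhere. Bst2 (1.68) and Stat2 (1.38) were higher in 5 of 6, library 6 with its 5 cells being the exception for both, and Irf1 in 3 of 6 (-0.07). Iigp1, a gamma-induced GTPase (2.96), and the antiviral kinase Eif2ak2 (2.42) were also higher in all 6, on 2 and 3 UMIs in library 1. By list, 10 of 20 type I effectors and 8 of 16 MHC class I genes were higher in all 6 libraries, and 0 of 7 receptors and kinases and 0 of 9 negative regulators were. These cells were deeper, with a median of 7228 UMIs against 5895, and their share of UMIs from the dissociation list was 2.77% against 2.26% in median, neither of which was tested as a source of the ratios. Endothelial-like cells held 21 such cells of 570 (3.68%, 2.29 to 5.58%) and leukocyte-like cells 5 of 549 (0.911%).

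Joint detection was also read at equal depth. Among cells thinned to 3000 UMIs, 2.86% of VSMC-like, 10.6% of fibroblast-like, 28.2% of endothelial-like and 20.0% of leukocyte-like cells held at least 1 UMI of the 3 effectors. An Isg15 UMI was found in 23 of the 115 VSMC-like cells with Ifit1 or Ifit3 (20.0%, 13.1 to 28.5%) and in 1.71% (1.46 to 1.99%) of those without. This came from library 3, with 20 of 34 (58.8%) against 2.13%. In the other libraries the shares were 3 of 81 (3.70%, 0.770 to 10.4%) and 1.63% (1.36 to 1.93%), intervals that overlap. In fibroblast-like cells 21.5% (18.4 to 24.9%) of cells with Ifit1 or Ifit3 held Isg15, against 5.65% (5.24 to 6.09%) without, and outside library 3 the shares were 22.6% and 5.54%. Endothelial-like cells gave 60.4% (45.3 to 74.2%) against 18.8% (14.9 to 23.2%). Leukocyte-like cells gave 6 of 16 (37.5%, 15.2 to 64.6%) against 17.1% (13.7 to 21.0%), intervals that overlap. Cells were pooled over libraries and clusters that differ in these levels, and the part of those differences in the shares was not tested.

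The next comparison was between VSMC subtypes. VSMC-like cells were clustered again without the members, the pathway, dissociation and subtype marker genes, giving a VSMC1-like subtype of 7603 cells (higher Tes, Ptprz1 and Igfbp2), a VSMC2-like subtype of 1437 cells (higher Enpep, Notch3, Gata4 and Thbs1), a Rgs5-high cluster of 669 cells and a Dcn/Lum cluster of 690 cells, 25.5% of which were marked as doublets. In VSMC2-like over VSMC1-like cells, 2 members were higher in all 6 libraries (11.9% of 7705 genes with at least 10 CPM were) and 1 was lower in all 6 (24.0% of genes). Of the 9 members, Irf1, Bst2 and Ifitm3 reached 10 CPM, and they are those 3.

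Irf1 was at 9.39 to 53.6 CPM (median 16.8) in VSMC1-like and 27.2 to 144 CPM (70.5) in VSMC2-like cells, ranges that overlap, but within each library VSMC2-like cells were higher, with log2 ratios of 2.36, 1.17, 1.38, 2.31, 1.41 and 3.14 in libraries 1 to 6 (median 1.86). Ifitm3 had a median of 296 CPM (260.5 to 483) in VSMC1-like and 425 CPM (408 to 643) in VSMC2-like cells, with log2 ratios between 0.38 and 0.69 (median 0.50). Bst2 had medians of 83.3 CPM (65.4 to 118) and 58.9 CPM (50.5 to 79.4), with log2 ratios of -0.08, -0.73, -0.57, -0.72, -0.47 and -0.42 (median -0.52). The membrane members thus differed in opposite directions. The median over all genes was -0.07.

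The low members gave no such direction. Isg15 had 3 to 42 UMIs per library in VSMC2-like cells and log2 ratios of -0.52, 0.86, -2.21, 0.98, 1.96 and 2.42, higher in 4 of 6. Irf7, with 54 UMIs in all, was higher in 4 of 6 (median 0.71), while Irf9 (-0.13) and Stat2 (-0.09) were higher in 2 of 6 and lay near the median of all genes. Ifit3 was higher in 5 of 6 (median 0.25) and lower in library 3 (-2.94), where 3 UMIs stood against 169 (log2 ratio of the CPM -2.99, 95% counting interval -5.28 to -1.42). Summed over all libraries, library 3 included, 28 UMIs of Ifit3 stood against 259, with a log2 ratio of the opposite sign (-0.75, -1.36 to -0.18). Ifit1 had 4 UMIs in all VSMC2-like cells and none in 4 of the libraries, at or below the floor of 3 UMIs in each library, so no ratio is read from it. In the sum of all libraries it was at 0.367 CPM against 3.19 CPM in VSMC1-like cells (192 UMIs, of which 143 were in library 3).

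**Figure D4:**
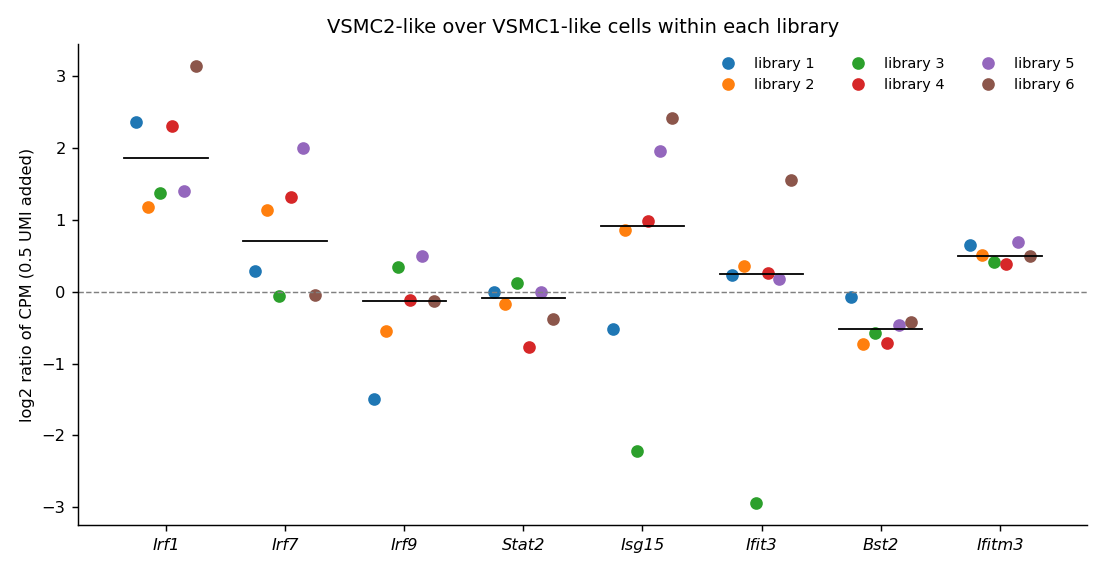
VSMC2-like CPM over VSMC1-like CPM on the log2 scale, with 0.5 UMI added, for 8 of the genes, with 1 point per library and a line at the median. Irf1 and Ifitm3 lie above 0 and Bst2 below 0 in all 6 libraries, and Ifit1 is left out because VSMC2-like cells held at most 3 UMIs of it in a library.

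The dissociation list was higher in VSMC2-like cells together with Irf1. In VSMC2-like over VSMC1-like cells, 20 of its 21 genes at 10 CPM were higher in all 6 libraries (median log2 ratio 1.03), and it summed to 19394 to 33953 CPM in VSMC2-like and 11846 to 23593 CPM in VSMC1-like cells. When cells of each library were split into 3 equal groups by their share of these transcripts, the median level of Irf1 over libraries was 7.60, 11.3 and 34.3 CPM in VSMC1-like cells from the lowest to the highest group. In VSMC2-like cells it was 20.6, 49.8 and 143 CPM. Bst2 over the same groups was at 92.2, 82.1 and 78.4 CPM in VSMC1-like and 65.2, 57.2 and 55.8 CPM in VSMC2-like cells, and Ifitm3 at 285, 297 and 296 CPM and 441, 452 and 421 CPM. After 1432 VSMC2-like cells were matched to as many VSMC1-like cells of their library on this share (mean 2.83% in both sets, against 1.87% over all VSMC1-like cells), the median log2 ratio was 1.31 for Irf1, 0.52 for Ifitm3 and -0.49 for Bst2. Over whole libraries, VSMC-like Irf1 was lowest in libraries 1 and 2 and highest in library 5, as was the list, at 13300, 13224, 16749, 17024, 24955 and 17551 CPM.

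**Figure D5:**
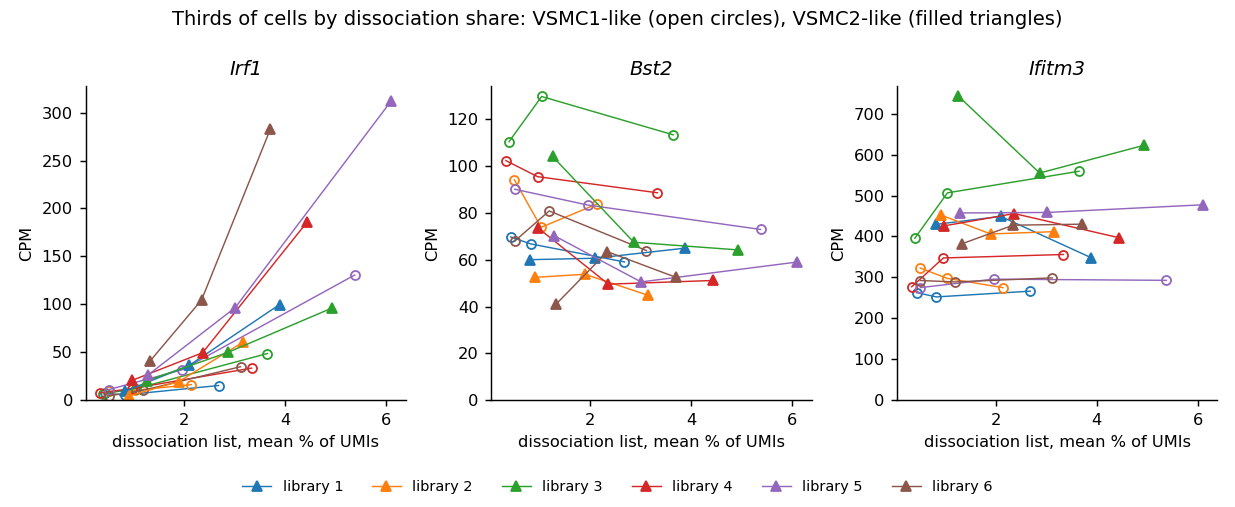
Level in CPM of Irf1, Bst2 and Ifitm3 in 3 equal groups of the VSMC1-like (open circles) and VSMC2-like (filled triangles) cells of each library, against the mean share of UMIs from the dissociation list in percent. Irf1 is highest in the group with the highest share in every library and both subtypes. The median of Bst2 over libraries falls from the lowest to the highest group in both subtypes, within its spread, and Ifitm3 shows no steady order.

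In the wider pathway, receptors and kinases had the largest share of genes lower in VSMC2-like cells. Of the 7 at 10 CPM, 5 were lower in all 6 libraries, against 24.0% of all genes, and 0 were higher (median -0.26). These were Ifnar1 (-0.41), Ifnar2 (-0.26), Ifngr1 (-0.25), Ifngr2 (-0.41) and Il10rb (-0.67), the receptor chains of type I, gamma and lambda interferon, while the kinases Jak1 (-0.07) and Jak2 (0.13) were not of 1 direction. Of 11 MHC class I presentation genes, 3 were lower and 3 higher in all 6, where 24.0% and 11.9% of all genes were, and the other 5 were not of 1 direction. The light chain B2m (-0.59) and the heavy chains H2-D1 (-0.73) and H2-K1 (-0.21) were lower in all 6 libraries, the heavy chains H2-T22 (-0.04) and H2-T23 (-0.35) were lower in 4 and 5, and the proteasome parts Psmb10 (0.50), Psme1 (0.31) and Psme2 (0.12) were higher in all 6. Of 9 negative regulators, 3 were higher in all 6, against 11.9% of all genes, namely Socs3 (1.18) and Socs1 (0.87), which block the receptor kinases, and the phosphatase Ptpn1 (0.43), and 1 was lower, Ptpn11 (-0.14). The lowest medians were those of Otud5 (-0.28) and Irf2bp1 (-0.18), each lower in 5 of 6.

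Of 13 type I effectors, 1 was higher in all 6, Ifi27 (0.31), and 1 was lower, Tor3a (-0.57), no larger a share than the 11.9% and 24.0% of all genes, with a list median of 0.07. The highest medians were those of Ifi27l2a (1.17, higher in 5 of 6) and Parp12 (0.68, 4 of 6), and Znfx1 was at -0.30. Among STATs and interferon regulatory factors, Irf2 (0.21), a repressor of Irf1 targets, was higher in all 6, Stat3 (0.78) in 5 and Irf3 (-0.10) in 2. Of the gamma GTPases and chemokines, Serping1 (0.49), a complement inhibitor, and Gbp2 (0.41) were higher in all 6, and Gbp7 (0.34) in 5. Of the nucleic acid sensors, Tbk1 (0.32), Mavs (0.07) and Ddx58 (-0.17), none was of 1 direction. Over the 50 genes at 10 CPM the median was 0.05. Several of the genes named as higher, such as Socs3 and Stat3, are known to respond to other cytokines as well. The ratios of these list genes are over all cells of the subtypes, not over cells matched on the dissociation list.

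The other smooth muscle clusters were set against VSMC1-like cells in the same way. In Rgs5-high cells, Bst2 (median 0.59) was higher in all 6 libraries, 1 of the 3 members with at least 10 CPM, where 9.33% of all such genes were. No member was lower in all 6 (4.87% of genes). In the Dcn/Lum cluster, Irf1 (2.11), Bst2 (0.39) and Ifitm3 (1.58) were higher in all 6, where 13.9% of genes were. They are the 3 members with at least 10 CPM, and no member was lower in all (16.5% of genes). Dcn was at 4057 CPM and Myh11 at 1072 CPM in that cluster, against 96.7 and 2561 CPM in VSMC1-like cells. The part of fibroblast transcripts in its Irf1 and Ifitm3 levels was not tested.

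Finer clusters of VSMC-like cells ranged widely in Irf1. Among 8 clusters named by their leading genes, the median level over libraries was 84.2 CPM (40.8 to 197) in the Dcn/Lum/Cygb cluster, 69.9 CPM (26.1 to 149) in Pgam2/Pln/Gja4 cells and 49.2 CPM (11.6 to 130.3) in Mt1/Sgk1/Klf2 cells. It was 9.40 CPM (5.50 to 17.1) in Ccdc42/Mylk4/Nrgn cells, the largest cluster with 3335 cells, and at most 17.7 CPM in the remaining 4. The clusters with high Irf1 also had the highest sums of the dissociation list, at 22124, 27152 and 36894 CPM against 10223 CPM, and their Irf1 ranges overlap. Bst2 was lowest in Pgam2/Pln/Gja4 (56.2 CPM, 50.5 to 66.9) and Myo9b/Pkd1/Tnxb cells (59.9 CPM, 41.1 to 81.5), and highest in Rgs5/Prrx2/Sfrp2 cells (119 CPM, 85.4 to 200.4), where the first 2 ranges do not overlap with the last. Ifitm3 was highest in the Dcn/Lum/Cygb cluster (981 CPM, 667 to 1328) and next in Tnnt2/Cd74/H2-Ab1 cells (427 CPM, 329 to 773).

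Fibroblast-like clusters differed in the effectors. The 1303 cells of the Cd74/Wif1/Coch cluster had the highest median of Isg15, at 55.3 CPM (33.2 to 124), and of Ifit1, at 14.3 CPM (7.05 to 55.6), among 6 clusters. The Hhip/F3/Pex5l cluster of 4403 cells had 17.4 CPM of Isg15 (13.7 to 30.6), a range without overlap, and 3.40 CPM of Ifit1 (2.09 to 7.99). Cells with all 3 effectors made up 2.30% (1.56 to 3.27%) of the former and 0.25% (0.125 to 0.447%) of the latter, before thinning. The former were deeper, with a median of 7668 against 5808 UMIs, and their dissociation list summed to 28348 against 21109 CPM, the highest of both measures among the 6 clusters, and the part of either was not tested. The same Cd74/Wif1/Coch cells had the lowest median of Bst2, at 72.9 CPM (40.8 to 146), against 87.8 to 160.5 CPM in the other clusters. The range overlapped with theirs. By median, Isg15 and Ifit1 were thus highest and Bst2 lowest in this cluster. The median of Ifit3 was 22.5 CPM (7.15 to 82.5) there and 22.4 CPM (9.68 to 60.8) in Cytl1/Spp1/Chad cells. Irf1 (198 CPM) was also highest in Cd74/Wif1/Coch cells, and Irf7 was highest in Has1/Ly6c1/Tnfaip6 cells (19.8 CPM, 9.57 to 33.5).

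As a description, the genes whose levels were most like each member were ranked over 23 sums of a class in a library by the Pearson correlation of log2(CPM + 10), among 10506 genes. The sums share libraries and classes, so the values are not tested. Irf1 was nearest to Ier2 (r = 0.947) and Ppp1r15a (0.944), an immediate early and a stress response gene. Irf7 was nearest to Sp100 (0.954) and Mndal (0.947), and Ifit3 to its neighbour Ifit3b (0.827) and Ube2l6 (0.825), the conjugating enzyme of Isg15. Irf9 and Bst2 were each among the nearest of the other (0.945), with AW112010 (0.968) first for Irf9 and Clec2d (0.940) second for Bst2. Ifit1 was nearest to Adamts4 (0.901) and Iigp1 (0.889), and Ifitm3 to Ly6a (0.978) and Ramp2 (0.976). Stat2 was nearest to Qk (0.947) and Pde8a (0.936), and Isg15 to Srsf2 (0.947) and Ppp1r10 (0.946).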

How the data were processed

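The authors deposited whole UMI counts per gene and barcode for all libraries in 1 matrix, made per the labels with Cell Ranger 6 on mm10 (the matrix header names version 4.0.0), without normalization. Whether aggregation equalized depth is not stated. Groups came from the labels, but barcode suffixes 1 to 6 carry no sample label, so no genotype was compared and no p-value was computed.

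Cells were normalized by SCTransform with 3000 variable genes and integrated by library (RPCA, 30 components) in Seurat 5.3.0, clustered at a resolution of 0.25 and named from markers. VSMC-like cells were integrated again without 61 list genes and clustered at 0.05, and at 0.3 for finer clusters. A subcluster led by cardiomyocyte markers (17 cells) was removed and a finer cluster led by fibroblast markers was set apart, both after it was seen. Doublets were marked with scrublet (scanpy 1.11.5) and kept. In libraries 2 and 5, where its threshold marked too few cells, the top 5% of scores were marked instead. This marked 5.35% and 5.22% of their cells, against 0.537 to 1.92% elsewhere, so doublet shares are not comparable over libraries.

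Counts were summed by cell type and library and given as CPM. Ratios within a library added 0.5 UMI scaled to totals. All-gene shares are over genes with at least 10 CPM, unless stated. In comparisons of classes this was in either class, and in those of subtypes in VSMC-like cells. Comparisons of cells with all 3 effectors added 5 CPM. A sum needed 20 cells, except for fibroblast-like cells with all 3 effectors, which numbered 5 to 39 in a library. Intervals are exact binomial (Clopper-Pearson, 95%) and cover counting error only. The limit given for a count of 0 cells is 3 divided by the number of cells. TMM factors came from edgeR 4.0.16. Ratios and medians were tested on simulated data. Coordinates are from GENCODE M21 (mm10), 1-based.

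The members and gene lists were chosen with earlier results of these data known. Named beside the members are, from each list, the 2 genes with the highest and the 2 with the lowest median ratio of VSMC2-like over VSMC1-like cells at 10 CPM or more, and the 2 genes most like each member. Any further gene was picked with its values known. A gene that this rule names is not reported here.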

Additional observations from a re-analysis of the deposited data

Results flagged for a closer look

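Of 44 sets of values over libraries (each member in each class, and each ratio of VSMC2-like over VSMC1-like cells), 5 held a library far from the others by Dixon's test for a single outlying value, where chance alone would give about 1 in 20. All 5 were library 3 and drew on the same VSMC-like cells. They are therefore not separate sets, and their number cannot be set against the chance rate. In VSMC-like cells Ifit1 was at 13.4 CPM (0.683 to 1.12 elsewhere), Ifit3 at 16.9 CPM (1.44 to 3.32), Isg15 at 29.7 CPM (3.59 to 7.44) and Irf7 at 7.02 CPM (1.89 to 3.27). The log2 ratio of Ifit3 in VSMC2-like over VSMC1-like cells was -2.94 (0.18 to 1.56 elsewhere). Without the 20 VSMC-like cells of library 3 that held Isg15, Ifit1 and Ifit3 together, its levels of these genes were 1.16, 2.07, 8.35 and 3.31 CPM. The genotype of library 3 is not known here.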

How the results depend on the processing

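Of 73 recomputed main values, 66 stayed within the spread or count limit and 7 moved, and of 162 for single members 156 stayed and 6 moved, with no called direction reversed. No paired analysis was possible because CTL and LDS could not be told apart among the libraries. Ratios between classes and subtypes were taken within each library. The median over the 9 members of VSMC2-like over VSMC1-like (log2 0.25, and 0.50 with libraries without a UMI set to 3 UMIs) was 0.64 with Leiden clustering, -0.020 in 1 sum over all libraries and 1.01 with the Dcn/Lum cells, the last chosen after the data were seen. The median of 0.25 is the value of Ifit3, which had 28 UMIs in all VSMC2-like cells. Leaving out each library gave 0.23 to 0.27 for the median over the 9 members, and 1.41 to 2.31 for Irf1. The wider list (0.05) was at -0.068 over the 17 genes of at least 50 CPM, and -0.03 to 0.11 without 1 library. The share of VSMC-like cells with an effector UMI (2.86%) was 1.90% thinned to 2000 UMIs. Isg15 among VSMC-like cells with Ifit1 or Ifit3 (20.0%) was 3.70% without library 3, and the log2 of the highest over the lowest median Irf1 of finer clusters (3.16) was 4.17 at a resolution of 0.5. Members highest in endothelial-like cells (8) numbered 7 to 9 over all alternatives, those without 1 library included. Ifit3 was highest there or in fibroblast-like cells, and Irf7 was highest in leukocyte-like cells in 1 sum and without library 1, 4 or 5. All 9 were lowest in VSMC-like cells in each. Members highest in library 3 numbered 5 or 6. Low counts of Ifit1, Ifit3 and Irf7 limit their ratios.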

Other observations

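Leukocyte-like cells were not uniform in the members. The 406 cells of the C1qc/C1qb/H2-Aa cluster, led by complement genes typical of macrophages, had medians over libraries of 113 CPM (77.9 to 154) for Isg15, 186 CPM (118 to 374) for Bst2 and 723 CPM (553 to 976) for Ifitm3. The 104 cells of the Camp/Ngp/Cd3e cluster, which had 20 cells or more in 2 libraries, held 18.7 and 50.2 CPM of Isg15, 56.2 and 61.3 CPM of Bst2 and 262 and 309 CPM of Ifitm3, all under the lowest value of the other cluster. Irf7 was at 55.9 CPM (32.6 to 126) in the former and 56.2 and 83.6 CPM in the latter. The latter had a median of 3471 UMIs per cell, against 5962.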
